A study of Mus musculus with 6 samples.

Results

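The genes examined here encode the subunits of the mitochondrial respiratory chain and of ATP synthase, the electron carrier cytochrome c, and factors that assemble the complexes, all picked by gene symbol. The symbol rule took names that begin with Nduf (followed by a, b, c, s or v), Uqcr, Sdha to Sdhd, Cox4 to Cox8 or Atp5, together with Cyc1, Cycs and the protein genes of the mitochondrial genome, and it left out processed pseudogenes. It found 105 of the 16300 genes in the table, of which 92 were coded in the nucleus and 13 in mitochondrial DNA. RNA-seq was run on 6 libraries of primary granulosa cells (GCs), the somatic cells that surround the oocyte, from wild type C57BL/6J mice aged 8 to 9 weeks. The 3 control libraries came from cells in media, and the 3 DHT libraries from cells given 25 nM dihydrotestosterone, an androgen that aromatase cannot convert to estrogen, for 24 h. Cells of 5 mice were pooled for each library, with 3 such pools per treatment, so a library is an average over animals. The labels' extraction text speaks of whole ovary and their treatment text names DHT for all samples, so the groups were taken from the separate treatment characteristic.

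In oxidative phosphorylation, complex I (NADH dehydrogenase) and complex II (succinate dehydrogenase) pass electrons to ubiquinone, complex III passes them to cytochrome c, and complex IV (cytochrome c oxidase) hands them to oxygen. Complexes I, III and IV pump protons as they do so, and ATP synthase lets the protons return through a ring of c subunits to make ATP. In steroid-making cells such as GCs, mitochondria also hold the first enzyme of progesterone synthesis, CYP11A1, which works on cholesterol in the same inner membrane. Catalytic core subunits carry the redox centers and the catalytic sites, and accessory subunits surround the core. Complexes I, III, IV and ATP synthase are built from products of both genomes.

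The values were normalized counts (reads per gene over a size factor set for each library), and the libraries held 36111177 to 41928585 counted reads. GC markers were abundant (Inha at 32272 to 60095 and Nr5a2 at 12984 to 16735 normalized counts), but Cyp19a1 was not analysed here, and Fshr was at 135 to 168. Of the 7 GC markers tested, Hsd17b1 rose and Inha and Foxl2 fell. Of the luteal or steroidogenic markers, Cyp11a1 and Hsd3b1 rose by 0.49 and 0.60 on the log2 scale. The 6 oocyte markers summed to 280 to 752 in control and 34.9 to 531 in DHT libraries, with Zp3 and Oosp1 at 0 in DHT replicate 2. The other marker lists summed to 101 to 147 against 112 to 169 for 3 endothelial genes, 228 to 255 against 182 to 243 for 3 leukocyte genes, 439 to 711 against 463 to 720 for 4 stromal genes and 378 to 679 against 271 to 715 for 3 surface epithelial genes. Among these, Csf1r (-0.64) fell and Myh11 (0.67) rose, while Ptprc, another leukocyte gene, had a value of 0.72 (adjusted p = 0.22 by limma) and the stromal genes Dcn and Pdgfra had values of -1.05 and -0.38 (adjusted p = 0.10 and 0.55 by limma). The single theca marker tested, Ptch1, was at 2411 to 2773 in control and 2172 to 2294 in DHT libraries. The red cell markers and the theca markers Cyp17a1 and Insl3 were not analysed here. The part of these cells and of the marker changes in the results that follow was not tested. In bulk samples, fewer cells of a type and less RNA per cell cannot be told apart.

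The comparison of control with DHT asked whether the androgen changed the transcripts of the respiratory chain. A gene was called where its adjusted p did not exceed 0.05. Of the 105 genes, 1 was called as higher (limma's moderated test with Benjamini-Hochberg adjustment over 16292 genes), namely Atp5g3, a gene for the c subunit of ATP synthase. None of the 105 was called as lower by limma. Over all tested genes, 1063 (6.52%) passed as higher and 760 (4.66%) as lower, so the shares among the members lay below the background. At an unadjusted p under 0.05, 12 members were higher and 7 lower, beside 13.4% and 11.8% of all tested genes. No member was called by limma with a fold change of more than 1 in size on the log2 scale, a rule that 1.31% of all tested genes met. The 3 libraries of one group all lay above those of the other in 15 members (higher in DHT) and 7 members (lower in DHT). The shares of all tested genes were 15.9% and 14.7%.

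The intervals around these changes were narrow. The 95% interval of the log2 fold change reached a median of 0.12 to either side over the 92 nuclear-coded members, against 0.18 over all tested genes. It lay wholly within -0.5 to 0.5 for 90 of the 92 and within -0.3 to 0.3 for 85. The 2 genes outside the wider band were Cox7a1 and Cox6b2, tissue-restricted isoforms with few reads here. The median log2 fold change of the nuclear-coded members was -0.01, beside -0.01 for all tested genes. The fitted values of the nuclear-coded members ran from -0.25 (Cox7a1) to 0.20 (Atp5g3).

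**Figure D1:**
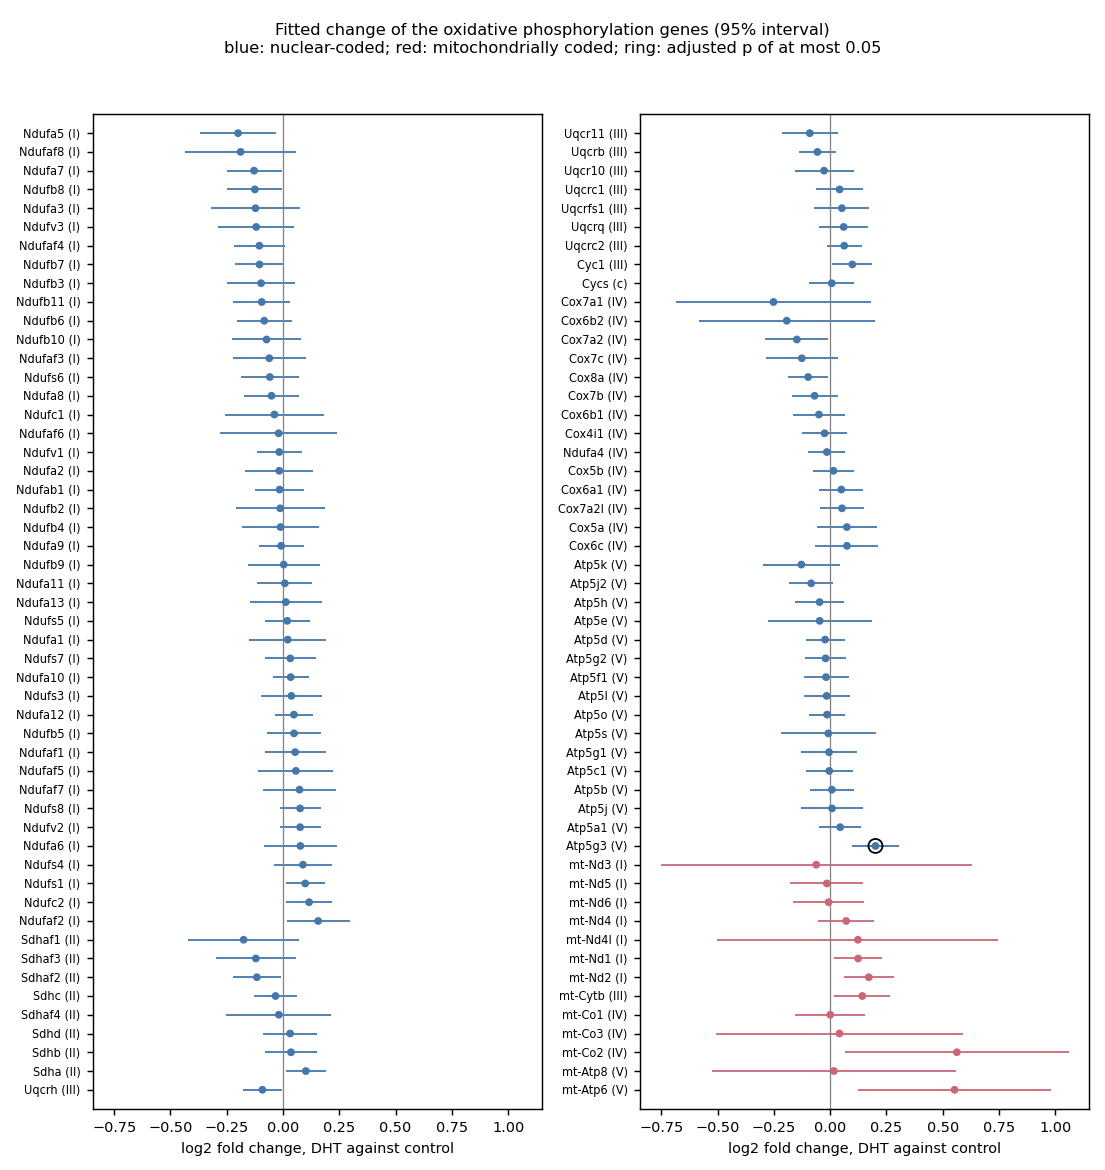
Log2 fold change (DHT against control, horizontal axis) of 104 of the 105 genes with its 95% interval from limma, ordered within complexes I to IV, cytochrome c (c) and ATP synthase (V). Blue points are nuclear-coded and red points mitochondrially coded genes, and the ring marks Atp5g3, the 1 gene called. Most points lie within 0.2 of 0, and the widest intervals belong to mitochondrially coded genes with few reads.

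The same mature c subunit is coded by 3 genes, each with its own targeting peptide that is removed on import. Of these, Atp5g3 was called and Atp5g1 and Atp5g2 were not. Atp5g3 lies at chr2:73908447-73911326 on the minus strand of GRCm38. Its exons overlap no other annotated gene and share no 100-base window with another annotated transcript. The normalized counts of Atp5g3 were 11330, 11420 and 10807 in the control libraries and 12225, 12820 and 13550 in the DHT libraries. The groups did not overlap. The control mean was 11186 ± 331 (SD, n = 3) and the DHT mean 12865 ± 664 (SD, n = 3). The log2 fold change of 0.20 ± 0.046 (SE) had an adjusted p of 0.024 by limma, a rise of 14.9%. The call rested on 2 of the DHT libraries: the adjusted p by limma was 0.087 without DHT replicate 2 and 0.090 without DHT replicate 3, with log2 fold changes of 0.20 and 0.16. It was also lost in limma without the intensity trend, with an adjusted p of 0.11.

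Atp5g1 was at 2549, 2469 and 2373 in control and 2348, 2373 and 2652 in DHT libraries. Its groups overlapped, and the 95% interval of its log2 fold change was -0.13 to 0.12. Atp5g2 was at 2865, 3045 and 2901 in control and 2820, 2968 and 2896 in DHT libraries, again overlapping, with an interval of -0.11 to 0.07. Per kilobase of exon, Atp5g3 made up 69.5% ± 0.45 (SD, n = 3) of the summed level of the 3 genes in control libraries, against 72.6% ± 0.60 (SD, n = 3) under DHT. The log2 ratio of Atp5g3 to Atp5g1 was 2.15, 2.21 and 2.19 in control and 2.38, 2.43 and 2.35 in DHT libraries. That ratio was higher in all 3 DHT libraries, by 0.21 (two-sided exact permutation test, p = 0.1, and groups of 3 cannot give a smaller one). The ratio of Atp5g3 to Atp5g2 was higher by 0.22 on the same scale, with the same exact p of 0.1. Since Atp5g3 was picked for its call, these ratios describe the same rise and are not separate evidence. Part of the exons of Atp5g2 (34.7% of 100-base windows) and of Atp5g1 (5.9%) is also found in other annotated transcripts. Reads from these parts may not be unique, and how they were placed was not tested.

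The 250 bases before the annotated start of Atp5g3, at chr2:73911327-73911576 on the minus strand (RefSeq, GRCm38.p6), are shown because it was the 1 gene of the chain with a call. Capitals would mark a match to any of the motifs given next, and there is none.
Atp5g3: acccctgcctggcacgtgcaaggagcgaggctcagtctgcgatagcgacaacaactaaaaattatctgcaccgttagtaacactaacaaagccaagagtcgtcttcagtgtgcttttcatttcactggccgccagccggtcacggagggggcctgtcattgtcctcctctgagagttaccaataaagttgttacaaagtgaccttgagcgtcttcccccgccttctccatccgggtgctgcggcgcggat

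Promoters of respiratory chain genes are known for sites of NRF1 and of ETS factors such as GABP. Of the 92 nuclear-coded members, 77 matched a RefSeq promoter of 300 bases (250 before the start and 50 after). The core of the NRF1 motif, GCATGCG, searched on both strands, was found in 14 of the 77 (18.2%) and in 4.01% of all 27025 genes with a promoter. Atp5g2 was among the 14, and none of the 14 passed the test. The ETS motif CCGGAAG, on both strands, was found in 21 of the 77 (27.3%) and in 9.93% of all. The single repeat TGTTCT, of which the androgen receptor binds pairs, on both strands, was found in 10 of the 77 (13.0%) and in 21.3% of all. These are matches of letters in a short window, and no match says only that these letters are not in it.

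**Figure D2:**
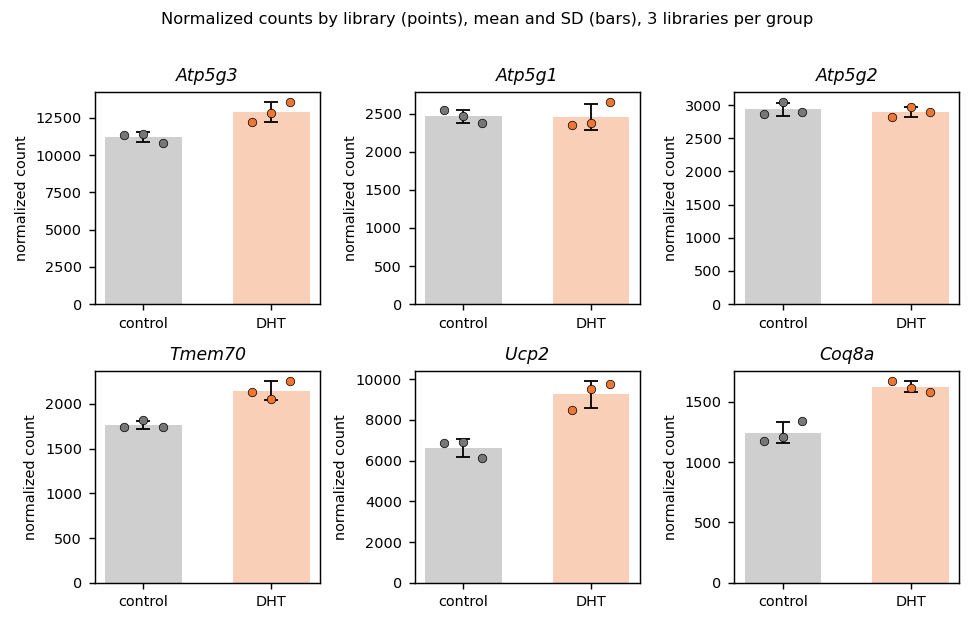
Normalized counts (vertical axis, from 0) of the 3 c subunit genes and of Tmem70, Ucp2 and Coq8a, with the 3 control and 3 DHT libraries as points, bars at the mean and error bars of 1 SD. The DHT points of Atp5g3, Tmem70, Ucp2 and Coq8a all lie above the control points, and those of Atp5g1 and Atp5g2 overlap them.

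The catalytic head of ATP synthase held the nuclear-coded transcripts with the highest normalized counts, and their groups overlapped. Atp5b, the catalytic beta subunit, was at 41192, 43432 and 41698 in control and 41583, 41638 and 43762 in DHT libraries. Its groups overlapped, and the 95% interval of its log2 fold change was -0.09 to 0.11. Atp5a1, the alpha subunit, ranged from 22204 to 23439 in control and from 22776 to 24404 in DHT libraries, with an interval of -0.05 to 0.14. The gamma (Atp5c1), delta (Atp5d) and epsilon (Atp5e) subunits of the central stalk had log2 fold changes of 0.00, -0.02 and -0.05. Of the 16 nuclear-coded genes of ATP synthase, 4 had a positive and 12 a negative fitted value, with a median of -0.02. Over the libraries left out in turn it ran from -0.041 without DHT replicate 3 to 0.0030 without control replicate 1, and with scaling on nuclear-coded reads it was -0.044. After a correction of each library for length and GC content it was -0.0034, with 8 positive values. Besides Atp5g3, every interval in this group held 0. Atp5k, the e subunit of the membrane part, ranged from 1274 to 1579 in control and from 1286 to 1355 in DHT libraries, with a log2 fold change of -0.13 (adjusted p = 0.33 by limma). Without control replicate 3 its log2 fold change was -0.22 and its adjusted p by limma 0.026, and without control replicate 1 they were -0.06 and 0.68.

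In complex I, 44 nuclear-coded members had a median log2 fold change of -0.01, and none passed the adjusted threshold by limma. Over the libraries left out in turn the median ran from -0.043 without control replicate 3 to 0.028 without DHT replicate 1. At an unadjusted p under 0.05 by limma, 4 were higher and 3 lower, shares below the 13.4% and 11.8% of all tested genes. The 7 nuclear-coded core subunits, which hold the flavin and the iron-sulfur clusters, had a median of 0.08, with 6 positive values. Ndufs1, the iron-sulfur subunit that is the largest of the complex, was at 4288, 4125 and 4131 in control and 4407, 4400 and 4628 in DHT libraries, with no overlap and an adjusted p of 0.14 by limma. The groups of Ndufv2 and Ndufs8 did not overlap either, with log2 fold changes of 0.08 for both. Of all tested genes, 15.9% were higher without overlap. The values for Ndufs3, Ndufs7 and Ndufv1 were 0.04, 0.03 and -0.02, and their groups overlapped.

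The 29 accessory subunits of complex I had a median of -0.015, with 11 positive and 18 negative values. Ndufa5 was at 1034, 1011 and 942 in control and 837, 807 and 962 in DHT libraries. DHT replicate 3 lay above control replicate 3, so the groups overlapped, and the log2 fold change of -0.20 had an adjusted p of 0.13 by limma. Ndufc2 was the accessory subunit with non-overlapping groups, at 2164 to 2292 in control and 2340 to 2525 in DHT libraries, with a log2 fold change of 0.12 (adjusted p = 0.14 by limma). Ndufa7 (2573 to 2784 in control, 2344 to 2638 in DHT libraries) and Ndufb8 (2220 to 2396 against 2016 to 2272) both had a log2 fold change of -0.13, overlapping groups and adjusted p-values of 0.18 and 0.19 by limma. The other 25 accessory subunits had intervals that held 0. Ndufab1, the mitochondrial acyl carrier protein that sits in the complex, ranged from 2521 to 2754 in control and from 2503 to 2717 in DHT libraries. Per kilobase of exon, Ndufc2 (2959) and Ndufs5 (2618) were among the highest nuclear-coded levels of the complex in control cells. The 8 assembly factors of the Ndufaf series had a median of 0.02, with 4 positive and 4 negative values. They ranged from 154 to 587 per kilobase in control, a range that also held some subunits, such as Ndufs1 at 517, while Ndufb2 was at 139. Ndufaf2 was at 648, 676 and 628 in control and 707, 700 and 768 in DHT libraries, without overlap, with a log2 fold change of 0.16 (adjusted p = 0.15 by limma). Over 1955 bases its exons overlap B230220B15Rik on the other strand, and 62.4% of its windows occur in another transcript. The strand setting of the counting is not given in the sources used here, so its reads are uncertain. Ndufaf4 was lower without overlap, at 1157 to 1245 in control and 1081 to 1141 in DHT libraries, with an adjusted p of 0.23 by limma.

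Complex II is coded wholly in the nucleus, and its 4 subunits had a median of 0.03. Sdha, the flavoprotein that oxidizes succinate, was at 9480, 9324 and 8892 in control and 9911, 9628 and 10174 in DHT libraries. The groups did not overlap, and the log2 fold change of 0.10 had an adjusted p of 0.15 by limma. The iron-sulfur subunit Sdhb and the membrane anchors Sdhc and Sdhd had overlapping groups, with log2 fold changes of 0.04, -0.03 and 0.03. Per kilobase of exon in control cells, the order was Sdhd (2777), Sdha (2237), Sdhc (1203) and Sdhb (1152). Exonic length counts every annotated exon (2239 bases for Sdhb, whose longest transcript has 1232), so orders per kilobase depend on the annotation. The 4 assembly factors Sdhaf1 to Sdhaf4 all had negative values, from -0.17 to -0.02, and the groups of Sdhaf1, Sdhaf2 and Sdhaf3 did not overlap. Their adjusted p-values by limma were 0.37, 0.16 and 0.38. Of all tested genes, 14.7% were lower without overlap. The exons of Sdhaf1 overlap another gene on the other strand over 1733 bases, so its reads are uncertain.

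The 4 nuclear-coded core subunits of complex III had positive values, from 0.04 to 0.10. Cyc1, cytochrome c1, which carries electrons to cytochrome c, was at 3606, 3549 and 3557 in control and 3755, 3726 and 3991 in DHT libraries. The groups did not overlap, and the adjusted p was 0.16 by limma. Uqcrc2, a core subunit without a redox center, had non-overlapping groups as well (4576 to 4670 in control, 4787 to 4944 in DHT libraries), and those of Uqcrc1 and of Uqcrfs1, the Rieske iron-sulfur protein, overlapped. The share of all tested genes that were higher without overlap was 15.9%. The 5 accessory subunits had a median of -0.06, with 1 positive and 4 negative values, and 2 were lower without overlap, beside 14.7% of all tested genes. Of these 2, Uqcrb was at 2898 to 3041 in control and 2836 to 2895 in DHT libraries. The other, Uqcrh (the hinge protein), was at 3388, 3277 and 3228 in control and 3089, 3033 and 3161 in DHT libraries. Its groups did not overlap, and its log2 fold change of -0.09 had an adjusted p of 0.17 by limma. Cycs, somatic cytochrome c itself, was at 2987, 3233 and 3030 in control and 3052, 3029 and 3210 in DHT libraries, overlapping throughout, with an interval of -0.09 to 0.11. Per kilobase of exon, Uqcr10 (3707), Uqcrb (3392) and Uqcrfs1 (3322) had the highest nuclear-coded levels of complex III in control cells.

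Of the 14 nuclear-coded genes of complex IV, none passed the adjusted threshold by limma, 0 were higher and 2 lower at an unadjusted p under 0.05 (beside 13.4% and 11.8% of all tested genes), and the median was -0.04. That median was -0.013 without DHT replicate 1, -0.017 and -0.022 without control replicates 1 and 2, -0.066 without DHT replicate 3 and -0.067 with scaling on nuclear-coded reads. Cox8a was at 4546, 4330 and 4239 in control and 4059, 4021 and 4169 in DHT libraries. Its groups did not overlap, and the adjusted p was 0.16 by limma. Cox7a2, the widely expressed isoform of subunit 7a, was at 3060, 2949 and 2619 in control and 2531, 2513 and 2729 in DHT libraries, with overlap through control replicate 3. Its log2 fold change was -0.15 with an adjusted p of 0.17 by limma, and without control replicate 3 it was -0.21 with an adjusted p of 0.024. Cox7c, another of the small membrane subunits, was at 5672, 5368 and 4832 in control and 4442, 4885 and 5216 in DHT libraries, and the spread within each group covered the difference. Cox4i1, the subunit through which ATP inhibits the enzyme, ranged from 9774 to 10425 in control and from 9492 to 10371 in DHT libraries, with an interval of -0.13 to 0.08. Cox5a, Cox6c and Cox6a1 had positive values of 0.07, 0.07 and 0.05, with overlapping groups. Cox7a2l, which binds complexes III and IV into supercomplexes, ranged from 3976 to 4013 in control and from 3897 to 4294 in DHT libraries. The muscle isoform Cox7a1 made up 2.30% ± 0.35 (SD, n = 3) of the summed level of these 3 genes per kilobase in control libraries, against 1.99% ± 0.15 (SD, n = 3) under DHT. In subunit 6b, the isoform Cox6b1 made up 98.0% and the testis isoform Cox6b2 1.96% in control, against 98.2% and 1.75% in DHT libraries. The isoforms Cox4i2, Cox6a2, Cox7b2, Cox8b, Cox8c and Ndufa4l2 were not analysed here. In control cells the highest nuclear-coded levels of complex IV were those of Cox6a1 (11004 per kilobase), Cox6b1 (7072) and Cox8a (7063).

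Roles were assigned to the genes by hand from background knowledge, and the contrast between them rests on that assignment. Across roles, the 23 nuclear-coded core subunits had a median log2 fold change of 0.04 with 16 positive values, and the 54 accessory subunits one of -0.03 with 17 positive values. The median of the core subunits turned to -0.0049 with 9 positive values without DHT replicate 3, was 0.017 without control replicate 3 and 0.069 without DHT replicate 1, and was 0.0082 with scaling on nuclear-coded reads. That of the accessory subunits was -0.080 with 12 positive values without DHT replicate 3 and -0.061 with 10 without control replicate 3. It was -0.0050 with 25 positive values without DHT replicate 1, -0.012 without control replicate 1, -0.016 without DHT replicate 2 and -0.055 with scaling on nuclear-coded reads. The 14 assembly factors had a median of -0.02 with 5 positive values, which was 0.0075 with 7 without DHT replicate 2, -0.0083 without control replicate 1, and -0.039, -0.043 and -0.058 without control replicate 2, control replicate 3 and DHT replicate 3. The median of the assembly factors was -0.048 with scaling on nuclear-coded reads and -0.0046 after a length and GC correction. The accessory subunits had a median exonic length of 1244 bases and the core subunits one of 2181. Over the 92 nuclear-coded members, the log2 fold change and the exonic length had a Spearman's rho of 0.30 across genes that share the same 6 libraries, and over all genes with a length the rho was 0.0086. After a correction of each library for length and GC content the rho of the members was 0.30. The 46 members shorter than 1795 bases had a median of -0.03 and the 46 longer ones a median of 0.00.

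**Figure D3:**
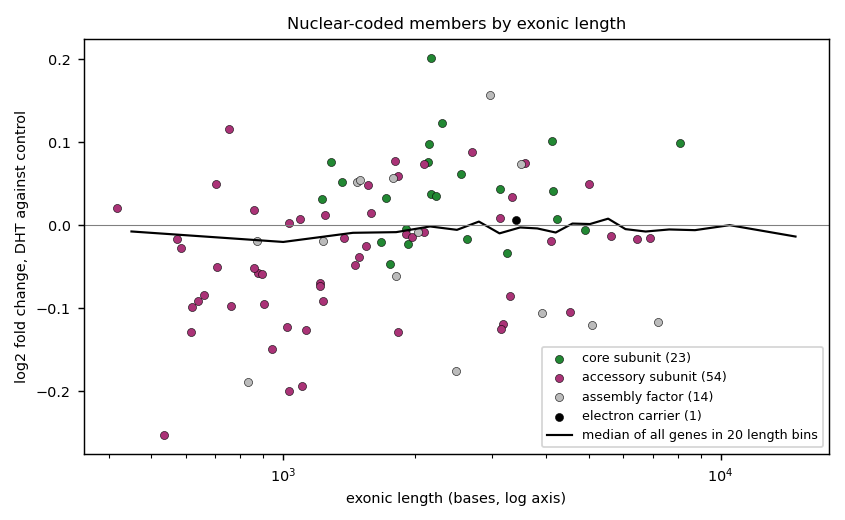
Log2 fold change (DHT against control, vertical axis) of the 92 nuclear-coded members against exonic length in bases (log axis), colored by role. The black line joins the medians of all genes in 20 length bins and stays between -0.020 and 0.0079, whereas many of the short accessory subunits lie below 0.

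Libraries of 1 group differed among themselves by more than these medians. The median deviation of the nuclear-coded members from their 6-library mean was 0.048, 0.023 and -0.054 in control replicates 1, 2 and 3, and -0.054, -0.016 and 0.057 in DHT replicates 1, 2 and 3, on the log2 scale. The same medians over all tested genes were 0.002 to 0.003. The highest of the 6 libraries was DHT replicate 3 in 42 of the 92 members and control replicate 1 in 34. The lowest was DHT replicate 1 in 34 and control replicate 3 in 27. Each group thus held a library in which many members were high and a library in which many were low. The same libraries also differed over all genes in how the deviation went with exonic length, with a Spearman's rho of -0.074 in control replicate 1 and -0.10 in DHT replicate 3, and of 0.072 in control replicate 3 and 0.056 in DHT replicate 1. The part of transcript length in the spread was not tested. The sum of the nuclear-coded members took 0.863%, 0.850% and 0.803% of the normalized counts in the control libraries and 0.809%, 0.817% and 0.860% in the DHT libraries, with full overlap.

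**Figure D4:**
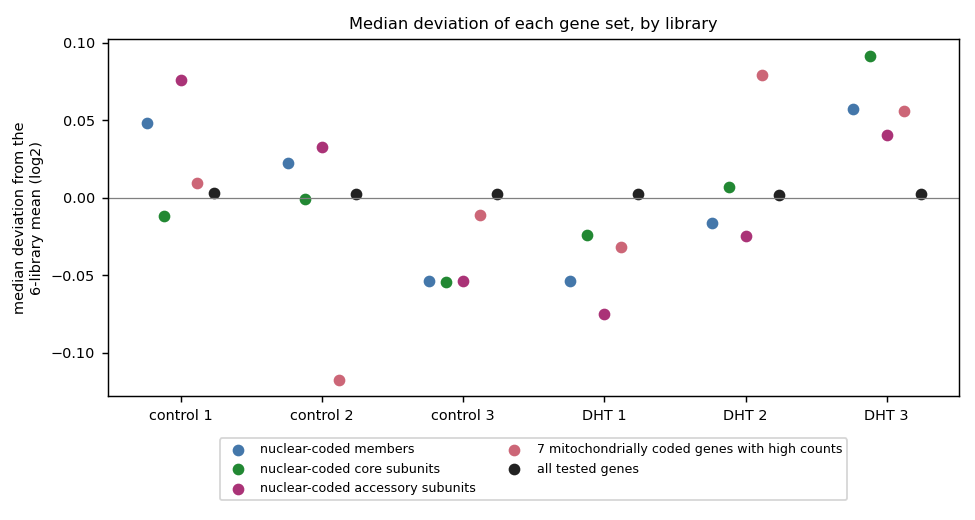
Median deviation from the 6-library mean (log2, vertical axis) of the nuclear-coded members, their core and accessory subunits, the 7 mitochondrially coded genes with high counts and all tested genes, in each library. The nuclear-coded medians run from -0.054 to 0.057, with a high and a low library in each group, and those of all tested genes stay at 0.002 to 0.003.

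The 13 mitochondrially coded genes fell into 2 levels. For mt-Co1, mt-Cytb, mt-Nd1, mt-Nd2, mt-Nd4, mt-Nd5 and mt-Nd6, normalized counts were 33668 to 453162, and in control cells 51571 to 285362 per kilobase. For mt-Co2, mt-Co3, mt-Atp6, mt-Atp8, mt-Nd3 and mt-Nd4l they were 17.4 to 260, and 58.0 to 515 per kilobase. The authors counted unique reads, and 5 of the 6 low genes have 97.6% to 99.9% of their 100-base windows in annotated pseudogenes on chromosome 1, nuclear copies of mitochondrial DNA. The copy of mt-Atp6 is Gm10925, with 678 aligned bases and 0 mismatches, and the copy of mt-Nd3 is Gm28438, with 1 mismatch in 345 bases. The first 60 bases of both pairs are shown because a read from them matches both places or nearly so. Capitals mark a base that differs, and the sequences come from GENCODE transcripts of GRCm38.
mt-Atp6, chrM:7927-7986, plus strand: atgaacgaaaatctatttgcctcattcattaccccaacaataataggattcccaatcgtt
Gm10925, chr1:24614592-24614651, minus strand: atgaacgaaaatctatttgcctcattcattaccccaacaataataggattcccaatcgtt
mt-Nd3, chrM:9459-9518, plus strand: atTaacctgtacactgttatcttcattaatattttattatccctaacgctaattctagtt
Gm28438, chr1:24613060-24613119, minus strand: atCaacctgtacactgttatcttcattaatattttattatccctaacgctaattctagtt

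The single difference of the mt-Nd3 pair is T3C, counted from 1 at the first base of the gene. A read that matches both places equally well is not unique, and how reads of these genes were placed was not tested. The sixth low gene, mt-Atp8, shares no window with an annotated transcript, but it overlaps mt-Atp6 over 43 bases and is only 204 bases long. It lies between mt-Co2 and mt-Atp6, whose copies are at chr1:24614885-24615565 and chr1:24613974-24614651. Only annotated transcripts were searched, so a copy of mt-Atp8 between these was not looked for. Gm10925 was at 89.0, 86.4 and 96.3 in control and 104, 103 and 124 in DHT libraries, beside 39.8 ± 0.19 (SD, n = 3) and 59.5 ± 11.1 (SD, n = 3) for mt-Atp6. Levels and changes of the low genes are uncertain. Partial sharing also touched mt-Nd4 (60.8% of windows) and mt-Co1 (30.8%). The exons of mt-Nd5 and mt-Nd6 overlap on opposite strands over 14 bases.

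**Figure D5:**
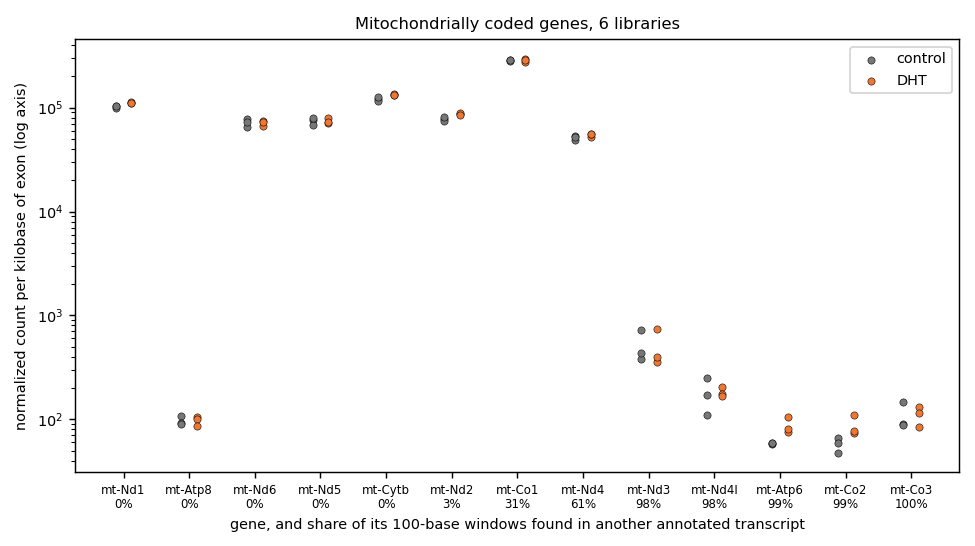
Normalized count per kilobase of exon (vertical log axis) of the 13 mitochondrially coded genes, ordered by the share of their 100-base windows found in another annotated transcript, with 3 control and 3 DHT libraries as points. The 5 genes with 97.6% or more shared windows, and mt-Atp8, sit far below the 7 others, and the points of the groups lie close together within each gene.

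None of the 13 passed the adjusted threshold by limma, and 5 were higher and 0 lower at an unadjusted p under 0.05, beside 13.4% and 11.8% of all tested genes. The median log2 fold change was 0.07, and 10 of the 13 values were positive. The 7 genes with high counts had a median of 0.07 with 5 positive values, and 3 of them were higher at an unadjusted p under 0.05 by limma. The other 2 of the 5 were among the 6 low genes, whose levels and changes are uncertain. Under quantile normalization the median of the 13 was 0.0 with 6 positive values, with scaling on nuclear-coded reads 0.042 with 8, and with the length and GC correction 0.039 with 8. For the 7 genes with high counts it was, in the same order, -0.048 with 1 positive value, 0.042 with 4 and 0.039 with 5. In mt-Nd2, a complex I subunit, the normalized counts were 80730, 77102 and 83585 in control and 90980, 91968 and 88756 in DHT libraries. The groups did not overlap, and the log2 fold change of 0.17 had an adjusted p of 0.059 by limma. Without control replicate 3 the value was 0.20 with an adjusted p of 0.041. In mt-Cytb, the cytochrome b of complex III, they were 139341, 132480 and 143674 in control and 151154, 155985 and 151301 in DHT libraries, also without overlap, with a log2 fold change of 0.14 (adjusted p = 0.14 by limma). In mt-Nd1 they were 99171, 95068 and 100095 in control and 106058, 108151 and 106447 in DHT libraries, with a log2 fold change of 0.12 (adjusted p = 0.14 by limma). Quantile normalization, which sets the libraries to one distribution, turned mt-Nd2 to -0.05 and mt-Cytb to -0.04 and left mt-Nd1 at 0.01. It replaces values by rank, so for the few genes with the highest counts its result follows their ranks and cannot decide a change of level. With the length and GC correction mt-Nd2 was at 0.11 and mt-Nd1 at 0.08.

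In mt-Co1, the catalytic subunit of complex IV and the transcript with the highest level of the 105 genes, the normalized counts were 443857, 436184 and 442612 in control and 427450, 453162 and 442451 in DHT libraries. The groups overlapped, and the 95% interval of the log2 fold change was -0.15 to 0.15. The values of mt-Nd4, mt-Nd5 and mt-Nd6 were 0.07, -0.01 and -0.01, with overlapping groups. The heavy-strand genes with high counts, which are transcribed together as 1 long RNA, had fitted values from -0.01 to 0.17, and the difference between them was not tested. The 2 low genes with the highest fitted values were mt-Co2 (33, 46 and 41 in control and 51, 52 and 75 in DHT libraries) and mt-Atp6 (40, 40 and 40 against 51, 72 and 56). Neither had overlapping groups, and the log2 fold changes of 0.56 and 0.55 had adjusted p-values of 0.15 and 0.10 by limma. The log2 fold changes of mt-Co3, mt-Nd3, mt-Nd4l and mt-Atp8 were 0.04, -0.06, 0.12 and 0.02, with 95% intervals of 0.54 to 0.69 to either side of them. All 13 together took 2.67%, 2.52% and 2.64% of the normalized counts in control and 2.60%, 2.71% and 2.62% in DHT libraries, with overlap.

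Genes that serve the chain but are not named as its subunits were read from fixed lists. Among 40 other assembly factors, limma called 1 as higher and 0 as lower, with 4 higher and 1 lower at an unadjusted p under 0.05. These shares lay below those of all tested genes (6.52% and 4.66% adjusted, 13.4% and 11.8% unadjusted). The call was Tmem70, which is known to help assemble the c ring of ATP synthase, the ring built from the product of Atp5g3. Tmem70 was at 1745, 1813 and 1736 in control and 2127, 2052 and 2258 in DHT libraries, without overlap, and its log2 fold change of 0.28 ± 0.047 (SE) had an adjusted p of 0.0058 by limma. The call held under all 17 alternatives run, with values from 0.24 to 0.33. The 2 other ATP synthase assembly factors of the list did not pass. Sco2 and Pet117 were not analysed here.

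Of 13 genes of ubiquinone synthesis, Coq8a passed, a kinase-like protein that the pathway needs, and it was higher. It was at 1178, 1210 and 1343 in control and 1676, 1619 and 1585 in DHT libraries, without overlap, and its log2 fold change of 0.39 ± 0.057 (SE) had an adjusted p of 0.0031 by limma. The list had 9 positive and 4 negative values, with a median of 0.06. At an unadjusted p under 0.05 by limma, 5 of the 13 were higher and 1 lower, beside 13.4% and 11.8% of all tested genes. At the adjusted threshold, 6.52% of all tested genes were higher. Pdss1 and Pdss2, which make the side chain, had values of 0.22 and 0.21, with adjusted p-values of 0.18 and 0.17 by limma.

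Of 4 carriers and uncoupling proteins tested (6.52% of all tested genes were called as higher), Ucp2 was higher. This inner membrane carrier is related to the uncoupling protein of brown fat. Ucp2 was at 6866, 6899 and 6121 in control and 8492, 9499 and 9773 in DHT libraries, without overlap. Its log2 fold change of 0.48 ± 0.064 (SE) had an adjusted p of 0.0018 by limma, and the call held under all 17 alternatives run. The list's adenine nucleotide and phosphate carriers did not pass. Of the 14 citric acid cycle genes, Dld, the shared E3 subunit of 2-oxoacid dehydrogenases, passed at 0.14 with an adjusted p of 0.048 by limma, and this call was lost without any 1 of the 6 libraries, with adjusted p-values from 0.070 to 0.17. At an unadjusted p under 0.05, 3 of the 14 were higher and 0 lower. The shares of all tested genes were 6.52% higher at the adjusted threshold, and 13.4% higher and 11.8% lower at the unadjusted one. The Dld call was also lost under quantile normalization (adjusted p = 0.077 by limma), with scaling on nuclear-coded reads (0.10) and without the intensity trend (0.15). Normalized counts of Dld were 6044, 6011 and 5974 in control and 6606, 6376 and 6866 in DHT libraries, without overlap.

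Factors that drive mitochondrial transcription and biogenesis gave no call by limma. Of the 21, 2 were higher and 2 lower at an unadjusted p under 0.05, beside 13.4% and 11.8% of all tested genes, and the median was -0.02. The GABP subunits had opposite values, -0.09 for Gabpa (4246, 4264 and 4442 in control, 4134, 4017 and 4014 in DHT libraries) and 0.12 for Gabpb1 (1244, 1277 and 1300 against 1365, 1386 and 1406). Neither gene's groups overlapped, and the adjusted p-values by limma were 0.16 and 0.11. The second lower gene, Pprc1, a coactivator of the PGC-1 family, had a value of -0.12 without overlap (adjusted p = 0.15 by limma). Tfb1m had a value of 0.24 with an adjusted p of 0.16 by limma. Beside these lists, 0 of 95 cytosolic ribosomal protein genes were called by limma, with 0 higher and 3 lower at an unadjusted p under 0.05. Of 78 mitochondrial ribosomal protein genes, 1 was higher and 0 lower by limma, with 5 higher and 2 lower at an unadjusted p under 0.05. All these shares lay below those of all tested genes, and the medians were -0.01 and 0.01.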

How the data were processed

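Trimmomatic 0.36, STAR 2.5.2b and featureCounts of Subread 1.5.2 were the authors' tools for trimming, mapping to GRCm38 and counting, and only uniquely mapped exonic reads counted. The deposited signal per gene is that count over the size factor the authors took from DESeq2, with low genes removed. The authors' own fold changes and p-values, also in the table, were not used, nor was a second table of 190 genes with identical values. Of all values, 100% were whole multiples of 1 step per library (tolerance 0.01 reads), which gave the reads per library.

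Values were analysed as log2(value + 1), which understates changes of low genes, in limma 3.58.1 (R 4.3.3) with the prior variance following the intensity. Genes under a mean of 10 were left out, and a call needed an adjusted p no larger than 0.05. Reads are not independent molecules, and 3 libraries per group limit precision. GENCODE for GRCm38 gave lengths and overlaps (105 of 105 genes matched). A gene's length was that of all its annotated exons merged, so levels per kilobase and their order depend on the annotation. Simulated counts for 16295 genes with 200 changed gave 197 of them back, with 8 false calls. How often a change as small as those fitted for the nuclear-coded members would be called was not tested. The naming rule took the fixed lists, mitochondrially coded genes, called members, the 3 highest per length in each complex, members without overlap above 0.5, and members whose call changed under an alternative. Many genes of the longer lists are given only within counts and medians. Other members with their values (Ndufc2, Ndufa5, Cox8a, Uqcrh, the Sdhaf genes, Tfb1m and the like) were chosen after these were seen. The members and lists were chosen with earlier results of these data known. The labels name no pool shared by number, so the main fit used no block. Deviations from the group means correlated at 0.0058, 0.067 and -0.24 between libraries of the same number. With 3 libraries per group these values cannot decide whether libraries of the same number shared a pool. Quasi-likelihood and Wald tests on reads were not run. One member of complex I is counted but not reported by itself here. The promoter motifs were chosen after the data were examined, and the shorter NRF1 and androgen receptor motifs replaced longer ones tried first.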

Additional observations from a re-analysis of the deposited data

How the results depend on the processing

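With 17 alternatives, the count of members called higher was 1 (Atp5g3) in the main test and 0 without the intensity trend and 0 with the replicate block, where the adjusted p of Atp5g3 by limma was 0.088 and that of Dld 0.14. Over the libraries left out in turn it ran from 0 to 2, and the count called lower from 0 to 2. The 2 lower calls, Atp5k and Cox7a2, and the second higher call, mt-Nd2, came without control replicate 3. With a length and GC correction the replicate block gave Atp5g3 an adjusted p of 0.034 by limma and 0.011 without the block. The Dld call was lost with that correction and the block together. The median of the nuclear-coded members ranged from -0.04 to 0.02 and stayed within the spread between libraries. The median of the mitochondrially coded members, 0.07, was 0.0 after quantile normalization, 0.042 with scaling on nuclear-coded reads, 0.039 with the length and GC correction, without and with the replicate block, and 0.043 to 0.13 over the libraries left out. Of the 105 members, 45 changed sign under at least 1 alternative, of which 3 had an absolute log2 fold change of at least 0.1. Planned tests on reads with edgeR and DESeq2 were not run. The causes were not tested. At the counts of mt-Co3, mt-Nd3, mt-Nd4l and mt-Atp8, the 95% intervals reached 0.54 to 0.69 to either side of the fitted value.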
